A study of Mus musculus with 3 samples.

Results

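TBX5 binding was examined at 8 genes of cardiac conduction in the fetal mouse lung: the connexin genes Gja1, Gja5 and Gjc1, the sodium channel gene Scn10a, the pacemaker channel gene Hcn4, the potassium channel genes Kcnq1 and Kcnh2, and the calcium channel gene Cacna1c. A peak was given to one of these genes when its summit lay between the first and last annotated base of the gene, or when the nearest end of any protein-coding gene, within 100 kb, belonged to it. By this rule the 8 genes held 35 of the 28381 peaks in the deposited list. The list came from chromatin immunoprecipitation and sequencing (ChIP-seq) of whole lungs from CD-1 mouse embryos, an outbred strain, at E14.5, with 2 libraries made with an antibody to TBX5 and 1 library of input chromatin, and 1 whole lung per replicate. No transgene, mutation or treatment was stated for any group. Whole lung mixes mesenchyme, epithelium, vessels and nerves, so a peak could not be traced to a cell type. The titles name lung for all 3 libraries, but the source field names heart for 2 of them, the second ChIP library and the input. No value of a single library was given, so no spread between replicates could be measured, the depth is unknown, and no result could be recomputed without the library labelled heart. The statements below are descriptions of 1 list, with no test.

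TBX5 is a T-box transcription factor that patterns the heart and forelimb and is also active in lung mesenchyme. In the heart it acts in the conduction system, where an action potential starts in pacemaker cells, passes between cells through gap junctions made of connexins, and is shaped by sodium, calcium and potassium currents. Gja5 is a well-known TBX5 target in the heart, and TBX5 also binds an enhancer within Scn10a there. The same channels and connexins are also used outside the heart, in smooth muscle, endothelium and nerves.

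Of the 8 genes, 7 (87.5%) had at least 1 peak, against 41.7% of all 21631 protein-coding genes under the same rule. A strong peak, here one whose −log10 q was at or above 21.35, the value of the 5000th peak of the list (5032 peaks with ties), was found at 5 of the 8 (62.5%), where 12.0% of all protein-coding genes had one. The highest −log10 q values were those of Kcnh2, Gja5 and Cacna1c, in that order, Gja1 and Gjc1 had only weak ones, and Hcn4 had none. Long genes collect more peaks, since the rule counts the whole gene body. Scn10a, Kcnq1 and Cacna1c, each longer than 100 kb, all had a strong peak, where 40.6% of the 2427 genes of 100 kb or more had one and 81.3% had a peak. Of the 5 genes under 50 kb, 4 had a peak and 2 a strong one, where 33.0% and 6.81% of the 16690 genes of that length did. The list gives no error for any of these counts.

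**Figure D1:**
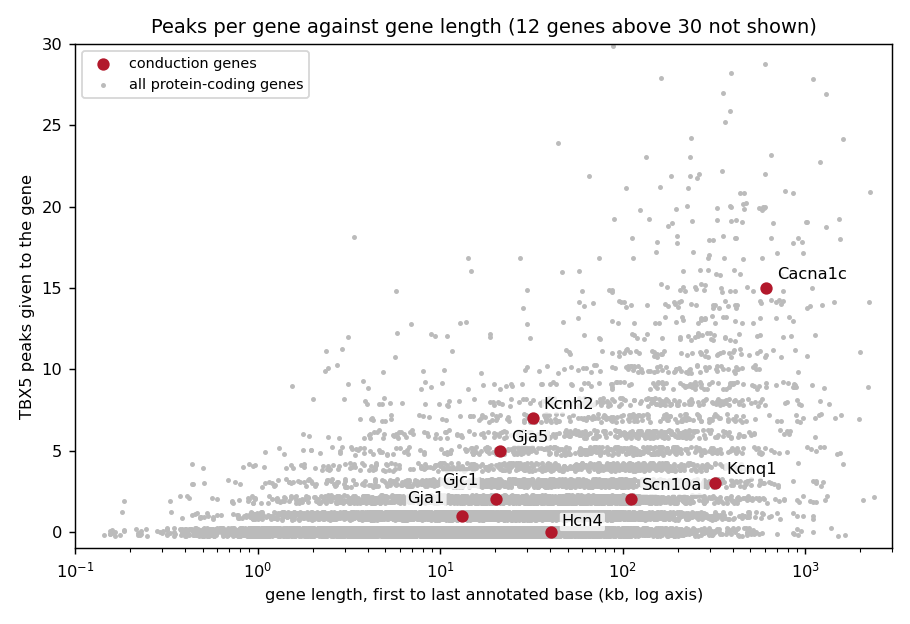
Number of TBX5 peaks given to a gene (y axis) against gene length in kb (x axis, log), with red points for the 8 conduction genes and grey points for all protein-coding genes, shifted by a small random amount up or down so that equal counts can be seen. Kcnh2, 32.1 kb long and given 7 peaks, and Cacna1c, 610.1 kb long and given 15, had the most peaks among the conduction genes, and Hcn4 lies at 0.

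The counts can be set against length through the sequence from which a gene could receive a peak, its body plus the flank nearer to its ends than to any other. The 8 genes had 2.155 peaks per 100 kb of such sequence, and all protein-coding genes had 1.293. Of the 35 peaks behind the first value, 22 were at Kcnh2 and Cacna1c and 13 at the other genes. Those 2 genes made up 106.5 and 634.7 kb of the 1624 kb of such sequence, and the density without them was not computed. Kcnh2 had the highest density, 6.576 peaks per 100 kb, which 5.79% of protein-coding genes reached. Gjc1 followed with 5.283, from 2 weak peaks in 37.85 kb, then Gja5 with 3.938, Cacna1c with 2.363 and Scn10a with 1.401. Kcnq1, with 0.877, and Gja1, with 0.534, lay below the pooled density over all genes, yet only 35.7% and 39.5% of single genes reached these values. Hcn4, without a peak, had a density of 0.

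**Figure D2:**
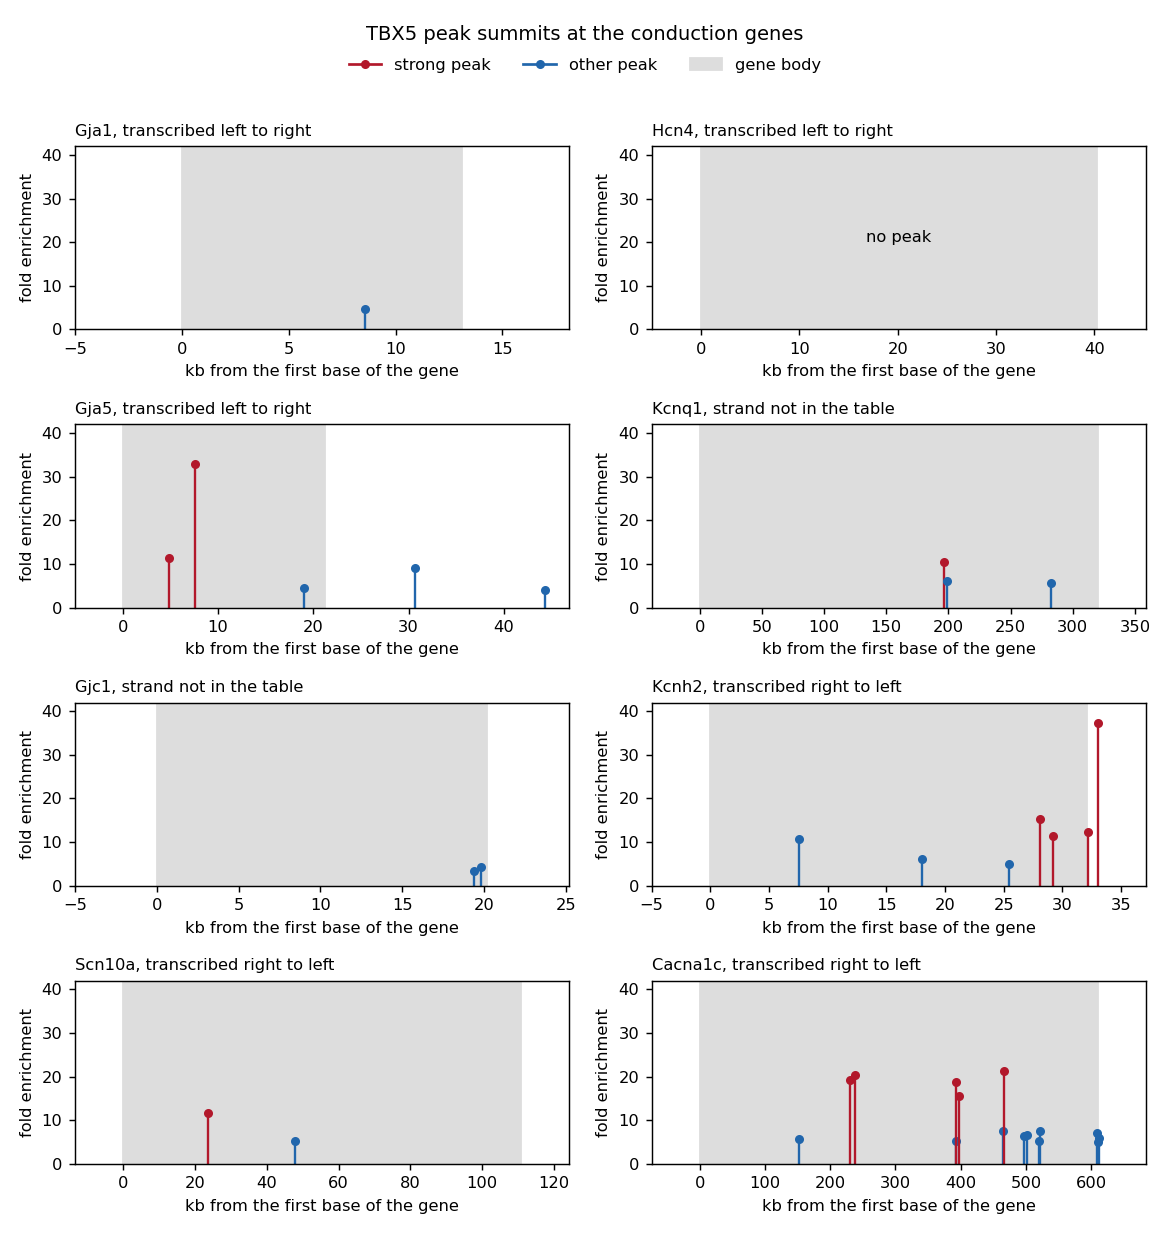
Fold enrichment at each peak summit (y axis) against the distance in kb from the first base of the gene in genome order (x axis), for each conduction gene, with strong peaks in red, other peaks in blue and the gene body in grey. The highest peaks stood inside Gja5 (33.0-fold) and just upstream of Kcnh2 (37.4-fold), while the strong peaks of Cacna1c stood deep inside the gene.

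The connexins form the channels of gap junctions. Gja5 encodes a connexin of atrial muscle, the ventricular conduction system and arterial endothelium, and had 5 peaks on chromosome 3, where the gene runs from 97032402 to 97053634 in build mm10. Its strongest peak, chr3:97039580-97040149, had 33.0-fold enrichment and a −log10 q of 97.5, and its summit lay inside the gene 7.56 kb downstream of the first base of the transcript. Only 1.36% of all peaks had a fold as high. A second strong peak, chr3:97037127-97037538, lay 2.664 kb closer to the start, at 11.4-fold. The other 3 Gja5 peaks were weaker. One inside the gene, 2.215 kb from its last base, had 4.46-fold enrichment. Those beyond the gene stood at 9.02-fold, 9.477 kb past the last base, and at 3.92-fold, 23.1 kb past it. These 3 summits also lay inside the long noncoding RNA gene 4930573H18Rik, which overlaps the last part of Gja5. The neighbouring gene Acp6, at 105.1 kb, had 0 peaks.

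Gja1 encodes the most widely used connexin, found in working heart muscle and in many other tissues. It had 1 peak, inside the gene at chr10:56385767-56385961, with 4.71-fold enrichment and a −log10 q of 3.82; 82.5% of all peaks had a fold as high. No peak lay between it and a summit 528.3 kb beyond the gene, of 8.95-fold, which had Gja1 as its nearest protein-coding gene but was outside the limit of 100 kb. Among peaks outside the gene bodies, the one farthest from its gene within the limit was that of Gja5 at 23.1 kb. Gjc1, a connexin gene of the embryonic heart, vessels and the nodes, had 2 peaks 0.443 kb apart near 1 end of the gene. Their summits lay 0.822 and 0.379 kb inside that end, at chr11:102818715-102818903 and chr11:102819129-102819495. With 3.31 and 4.19-fold enrichment, they were among the weakest of the list, where 99.1% and 92.0% of peaks had a fold as high. Of the adjacent genes, Tbc1d32, Adam11 and Higd1b had 0 peaks, and Hsf2, 1093 kb from Gja1, had 2.

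Scn10a encodes a sodium channel known best from sensory neurons. It had 2 peaks, both inside the gene, which runs from 119608456 to 119719322 on chromosome 9 and is transcribed towards lower coordinates. The strong one, chr9:119632003-119632496, had 11.8-fold enrichment and a −log10 q of 23.8, and its summit lay 87.05 kb downstream of the first transcribed base. The weak one, chr9:119656225-119656418, had 5.27-fold enrichment and a −log10 q of 5.43. Scn11a, a further sodium channel gene 34.44 kb from Scn10a, had 0 peaks. Whether the strong Scn10a peak covers the known heart enhancer was not examined here.

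Hcn4 encodes the channel of the pacemaker current in the sinus node. It had 0 peaks in its 40.23 kb or in the flanks closest to it. The nearest summits were 161.5 kb beyond the gene, inside Neo1, with 38.1-fold enrichment and a −log10 q of 126.1, and 267.4 kb before it, with 6.13-fold. Neo1, a receptor gene 11.5 kb from Hcn4, had 5 peaks, while Rec114, which ends 0.243 kb from Hcn4, had 0. A weak site under the threshold of the caller would not appear in the list, so a count of 0 says only that no peak was called.

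Kcnh2 encodes the channel of the rapid delayed rectifier potassium current, which ends the cardiac action potential. With 7 peaks in 25.52 kb, 4 of them strong, it was the most densely bound of the 8 genes. Its highest peak, chr5:24352256-24352959, stood at 37.4-fold with a −log10 q of 168.8, the rank of 93 in the whole list, and its summit lay 0.965 kb upstream of the first base of the gene, 24351684, the gene being transcribed towards lower coordinates. Of all protein-coding genes, 0.337% had a peak with so high a −log10 q. A second strong peak, chr5:24351607-24352203, overlapped the first base, with its summit 85 bp upstream and 12.3-fold enrichment. The other strong peaks lay inside the gene 2.87 and 4.005 kb downstream of the first base, at 11.5-fold and 15.3-fold. These 4 summits therefore fell within a few kb around the annotated 5′ end of the gene. The weaker peaks followed further into the gene, at 5.08-fold (6.675 kb), 6.17-fold (14.03 kb) and 10.8-fold (24.55 kb downstream). The last 2 of these lay where the noncoding gene Gm15589 overlaps Kcnh2. The neighbours Nos3, the endothelial nitric oxide synthase gene 13.13 kb upstream, and Nupl2 had 0 peaks.

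Kcnq1 encodes the channel of the slow delayed rectifier potassium current and lies in an imprinted domain with the noncoding RNA gene Kcnq1ot1, which runs inside it. All 3 Kcnq1 peaks lay inside the gene and outside Kcnq1ot1. The strong peak, chr7:143302936-143303267, had 10.4-fold enrichment and a −log10 q of 22.7, and its summit lay 6.569 kb from the nearer end of Kcnq1ot1. A weaker peak 2.808 kb from it had 6.19-fold enrichment, and another, 83.44 kb further on, had 5.54-fold. The strong peak lay 123.9 kb from the nearer end of Kcnq1, so it was counted only because it was inside the gene. Cdkn1c, the imprinted cell cycle inhibitor gene next to Kcnq1, had 2 peaks, and Trpm5 on the other side had 0.

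Cacna1c encodes the pore of the L-type calcium channel, which carries the main calcium current of heart and smooth muscle. It had 15 peaks, 14 inside the gene and 1 just upstream, and 0.624% of protein-coding genes had as many. The gene is 610.1 kb long, and 21.1% of protein-coding genes reached its density of peaks. Its 5 strong peaks fell into 3 groups deep inside the gene. The first group held chr6:118817971-118818463 (19.2-fold) and chr6:118825212-118825720 (20.3-fold), with summits 7.225 kb apart. The second held chr6:118980315-118980644 (18.8-fold) and chr6:118984211-118984884 (15.5-fold), with summits 3.907 kb apart, both within the noncoding gene Gm50599. The third was chr6:119052320-119053087, at 21.2-fold the highest of the gene and at 768 bp the widest of the 35 peaks. All 5 lay between 144.5 and 379.1 kb downstream of the first base of the gene, and their −log10 q ran up to 51.6. The other 10 peaks stood between 4.95 and 7.54-fold. For 8 of the 15, every annotated protein-coding end was over 100 kb away, and they were counted only as inside the gene. Dcp1b, a decapping enzyme gene that overlaps the 5′ part of Cacna1c, was also given 7 of the 15, all of them weak, and those 7 could not be assigned to 1 gene alone. Ankrd26 and Cacna2d4, the genes on either side, had 0 peaks.

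RefSeq promoter windows, each 250 bases before and 50 after a transcript start, were matched for 6 of the 8 genes, 8 windows in all. A peak overlapped 2 of the 8, both of Cacna1c, and 13.3% of all 32619 windows. The windows used did not include Gjc1, Kcnq1 or the first base of Kcnh2, whose 1 window belongs to a start inside the gene, so the peaks within 1 kb of the ends of Gjc1 and Kcnh2 do not enter this count. The stretch before each of those 2 starts is printed here because a peak overlaps part of it. Bases inside the peak are in capitals (RefSeq, GRCm38.p6, minus strand, 5′ to 3′). The upstream start has chr6:119196410-119196659 before it, and its peak, chr6:119196449-119196783, of 7.17-fold, had its summit 219 bp before the start. The inner start has chr6:119108496-119108745 before it, and its peak, chr6:119108277-119108622, of 7.52-fold, had its summit 49 bp after the start. Both starts lie inside the annotated gene.
Cacna1c, upstream start: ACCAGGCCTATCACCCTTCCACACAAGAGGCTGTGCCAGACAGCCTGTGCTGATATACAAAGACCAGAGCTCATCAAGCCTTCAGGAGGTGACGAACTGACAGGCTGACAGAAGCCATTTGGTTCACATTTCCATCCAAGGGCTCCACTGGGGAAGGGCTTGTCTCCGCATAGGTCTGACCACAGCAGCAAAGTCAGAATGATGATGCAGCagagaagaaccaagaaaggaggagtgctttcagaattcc
Cacna1c, inner start: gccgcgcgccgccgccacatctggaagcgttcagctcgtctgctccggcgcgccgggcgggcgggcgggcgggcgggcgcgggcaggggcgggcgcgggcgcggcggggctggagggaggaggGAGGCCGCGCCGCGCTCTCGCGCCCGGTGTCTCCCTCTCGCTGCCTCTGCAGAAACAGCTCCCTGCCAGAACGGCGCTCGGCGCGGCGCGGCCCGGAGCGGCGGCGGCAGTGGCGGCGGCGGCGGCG
The inner promoter was made up of G and C to 82.8% and the upstream one to 51.6%. Neither stretch held the T-box half-site AGGTGT or the longer T-box site AGGTGTGA on either strand. The stretches held only 211 of the 335 bases of the upstream peak and 127 of the 346 of the inner one. The summit of the inner peak lay outside its stretch, so the rest of these peaks was not searched. Among all promoter stretches of this length, 11.9% held AGGTGT and 1.13% held AGGTGTGA, which contains it. The NKX2-5 motif TNAAGTG and the GATA motif AGATAA, bound by partners of TBX5 in the heart, were also absent from both, where 10.1% and 10.0% of all stretches held them. The promoter of Hcn4, shown for contrast since it had no peak, was the only one of the 8 windows with AGGTGT, here in capitals on the opposite strand (chr9:58822699-58822948, plus strand).
Hcn4: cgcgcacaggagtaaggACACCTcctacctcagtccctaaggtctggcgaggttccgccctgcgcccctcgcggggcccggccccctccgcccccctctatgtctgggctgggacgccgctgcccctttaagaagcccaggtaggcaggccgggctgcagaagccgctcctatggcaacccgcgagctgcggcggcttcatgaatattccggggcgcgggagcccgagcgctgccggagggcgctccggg
The promoter of Gja1 held 1 GATA motif, and the other member windows held none of the 4 motifs. These matches describe letters in these stretches and say nothing of peaks, or parts of peaks, outside them, whose sequence was not used here.

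The 35 peaks had a median fold of 7.17 (quartiles 5.24 and 12.0), and all 28381 peaks had a median of 6.27 (quartiles 5.07 and 9.22). Of the 35, 13 (37.1%) were strong, where 17.7% of all peaks were, and 14 (40.0%) had at least 10-fold enrichment, where 21.2% of all peaks did. Kcnh2 and Cacna1c supplied 9 of the 13 strong peaks and 22 of the 35 peaks. The 13 peaks of the other genes had a median fold of 5.54, below the median of the list, and 4 of them (30.8%) were strong. Peaks of 1 gene share a locus and are not independent of each other.

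**Figure D3:**
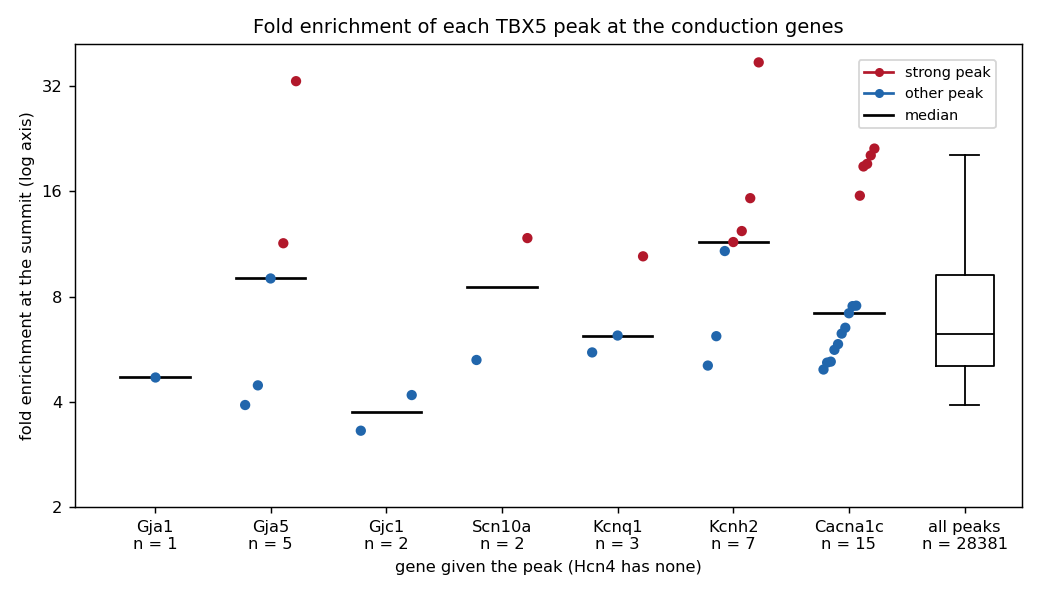
Fold enrichment at the summit (y axis, log) of every peak of each conduction gene (x axis), with strong peaks in red, other peaks in blue and a line at the median of each gene; the box at the right gives the quartiles of all 28381 peaks, with whiskers from the 5th to the 95th percentile. Kcnh2 had the highest median, 11.5-fold, and the peaks of Gjc1 and Gja1 all lay below the median of the list.

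Most of the 35 summits lay within genes, and the share at gene ends was close to that of all peaks. Of the 35, 30 were inside the conduction gene to which they were given, which the rule favours, and 52.2% of all peaks were inside a protein-coding gene. Within 1 kb of a protein-coding gene end lay 6 (17.1%), and 17.6% of all peaks did. These 6 were the peaks of Gjc1, the upstream pair at Kcnh2 and a pair at the 5′ end of Cacna1c. Many summits lay close together, mostly at Kcnh2 and Cacna1c, which held 22 of the 35 peaks. Of the 35, 26 (74.3%) had another summit of the list within 10 kb, where 50.1% of all peaks did. For 12 (34.3%) it lay within 1 kb, where 16.9% of all peaks had one so close. Among the 13 peaks of the other genes, only pairs at Gja5 (2.664 kb apart), Gjc1 (0.443 kb) and Kcnq1 (2.808 kb) lay within 10 kb of another summit. The median width was 335 bp, and 291 bp over all peaks.

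Other genes of conduction and excitation were counted by class, with no test between classes. Of 17 other connexin genes, 3 (17.6%) had a peak and 2 (11.8%) a strong one. These were Gjb5, with 4 peaks and 17.0-fold at the strongest, 56.3 kb outside the gene, Gjd3, a connexin gene of the nodes in mouse, with 1 peak of 12.3-fold 0.962 kb outside the gene, and Gjd2, a neuronal connexin gene, with 2 weak peaks. Of 12 other sodium and pacemaker channel genes, 6 had a peak (50.0%) and 2 a strong one. Scn3a, a sodium channel gene of neurons, had 2 peaks, the strongest at 14.1-fold inside the gene. The share for each of these lists must be read against 41.7% and 12.0% of all genes.

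Of 17 other potassium channel genes, 10 (58.8%) had a peak and 3 (17.6%) a strong one. Kcnj5, a subunit of the acetylcholine-gated channel of the atria and nodes, held the highest, at 23.8-fold and 0.525 kb outside the gene, followed by Kcnk3, with 5 peaks and 14.0-fold 0.234 kb outside the gene. Of 14 other calcium channel and calcium handling genes, all 14 had a peak and 8 (57.1%) a strong one. Their median length was 97.81 kb, while that of all protein-coding genes was 17.33 kb, and their density was 2.125 peaks per 100 kb. The sodium-calcium exchanger gene Slc8a1 had 13 peaks, the strongest at 59.8-fold 59.74 kb outside the gene, chr17:81797223-81798468. Ryr2, the calcium release channel gene of heart muscle, had 2 peaks, the strongest at 29.5-fold 26.69 kb outside the gene.

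Marker genes of heart muscle and of lung mesenchyme were set beside these, since 2 libraries carry heart in the source field. Of 14 cardiomyocyte genes, 3 (21.4%) had a peak and 2 (14.3%) a strong one, Myl3 (34.9-fold) and Actc1 (17.9-fold). Nppa, Nppb, Myh6, Tnnt2, Tnni3, Myl7 and Ttn were among the 11 with 0 peaks. Of 10 lung mesenchyme genes, all 10 had a peak and 7 (70.0%) a strong one, with the highest −log10 q at Tbx4 (53.8-fold) and Col1a1 (29.3-fold). The 2 lists differ in length, with a median of 11.04 kb for the cardiomyocyte and 38.31 kb for the lung mesenchyme genes, and long genes collect more peaks. The density of the conduction genes, 2.155 peaks per 100 kb, lay between that of the lung mesenchyme genes, 4.75, and that of the cardiomyocyte genes, 1.339. All protein-coding genes had 1.293. Of the 35 peaks behind the value of the conduction genes, 22 were at Kcnh2 and Cacna1c. Peaks are not a measure of expression, and the part of heart tissue in any peak was not tested.

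**Figure D4:**
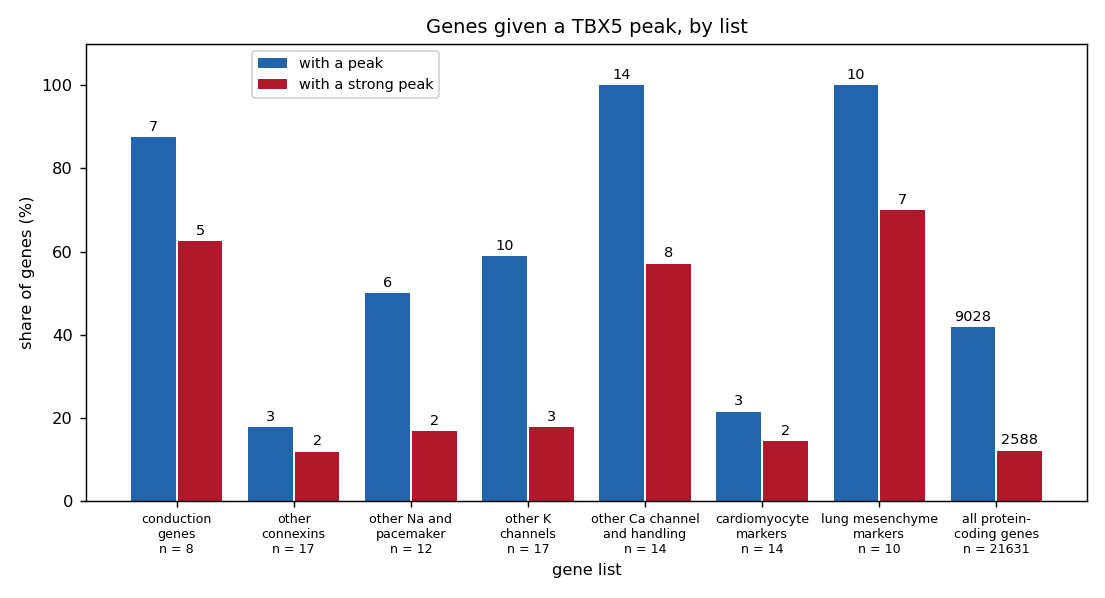
Share of the genes of each list (y axis, %) with a TBX5 peak (blue) and with a strong TBX5 peak (red), with the number of genes above each bar and the size of the list under it. Of the 8 conduction genes 7 had a peak and 5 a strong one, and 9028 and 2588 did among all 21631 protein-coding genes.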

How the data were processed

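Per the submitters' processing notes, the tools were Bowtie2, SAMtools and MACS2 and the build was mm10. Their versions and settings, the control and any merging of libraries are not stated there. The deposited data were 1 peak list without header. The authors' caller gave each peak a fold enrichment (a ratio of ChIP signal to local background) and the −log10 of its p-value and q-value, and the deposited score follows the −log10 q. These are the authors' values and serve only for ranks inside this list; the p-value was not used. The deposited offset of the summit, another column, placed each summit. Of the numbered peaks, 23 were absent. Starts are 1-based.

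Genes and promoter windows came from RefSeq tables of GRCm38.p6, the assembly behind mm10; 21631 protein-coding genes lay on chromosomes with peaks. Peaks were given to genes with Python 3.11.15 and pandas 2.3.3. The assignment was tested on simulated data with known genes. The distance to a gene end is that of the summit. Motifs were searched on both strands in the 250 bases before each start.

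The genes, lists and thresholds were chosen with earlier results of these data known, so no count was tested. The lists of other genes came from general knowledge of the heart. Named were all 8 genes, each with every peak up to 10 or else the 5 with the highest −log10 q, the 2 genes of each list with the highest −log10 q, genes sharing a peak and adjacent genes, of which 3 are not reported here. Other genes with a peak in a count of 5 or fewer, and the 7 cardiomyocyte genes without a peak, were named after their values were seen.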

Additional observations from a re-analysis of the deposited data

How the results depend on the processing

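No paired analysis was possible because the list holds no value per library, and for the same reason no replicate could be left out. The rule was changed in 11 ways, which gave 146 values. Of these, 118 kept within 1.5 times of the count or within the 95% binomial interval of the median (5.64 to 11.4-fold). That interval takes the 35 peaks as independent, which peaks of 1 gene are not. It served only as a fixed range and measures no error. The 118 include values that could not move, such as 0 at Hcn4 where a change only dropped peaks. Counting only the nearest gene end gave 21 peaks in place of 35, with Cacna1c at 3, and 3 genes with a strong peak in place of 5. With the 14237 peaks of highest −log10 q the 8 genes had 20 peaks, with a median of 11.6-fold, and with peaks of at least 10-fold they had 14, with a median of 15.4-fold; both choices raise the median by construction. At 10-fold or more, 2 sodium and pacemaker, 4 potassium and 9 calcium genes of the other lists had a peak, and Gja1 and Gjc1 had none. With summits in gene bodies only, 0 of the other connexin and 5 of the other potassium channel genes had one. With 1000 peaks called strong, 2 genes, Kcnh2 and Gja5, had a strong peak. The share of all protein-coding genes was not counted under any changed rule. A lower count therefore cannot be read as a loss particular to these genes. With a limit of 1 Mb, Gja1 had 2 peaks. Hcn4 had 0 under each alternative. Without depth, folds near the threshold of the caller cannot be given an error.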

Other observations

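Of all 28381 peaks, 96.0% had exactly the same fold and −log10 q, to the last digit deposited, as at least 1 other peak, and 31 of the 35 conduction peaks (88.6%) did. Among strong peaks the share was 85.2%, and 10 of the 13 strong conduction peaks shared their values. The second Gja5 peak and the strongest Kcne4 peak both had 11.3704-fold and a −log10 q of 22.59, and the strong Scn10a peak and the strongest Jph2 peak both had 11.7625-fold and 23.847. These pairs were chosen after their values were seen.

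Over all promoters, the stretch of 250 bases before the start held AGGTGT in 9.73% of the 4326 windows that a peak overlapped and in 12.2% of the 28259 others, and AGGTGTGA in 0.693% and 1.19%. The NKX2-5 motif was found in 5.99% of windows with a peak and 10.8% of the others, and the GATA motif in 3.84% and 11.0%. Windows with a peak were also richer in G and C, with a median of 64.0% and 50.8% in the others, and the part of base composition in the motif shares was not tested.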
